A study of Homo sapiens with 4 samples.

Results

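Cell surface peptidases cut peptides and other proteins outside the cell, and 9 of their genes are described here in a human pancreatic ductal adenocarcinoma cell line, KP4. The 9 genes, chosen by name from a table of 60651 genes, are MME, ECE1, TRHDE, ANPEP, LNPEP, ENPEP, DPP4, ADAM10 and ADAM17. The list was made when levels and fold changes from these same libraries were already known, and which of those values it was selected on is not recorded. Levels and tests of the 9 genes therefore describe these libraries, and the adjusted p values only place a gene in a fit of all genes. Of the 9, 8 passed the filter on low counts and were tested with 15636 genes in all. ENPEP did not pass, having at most 1 count in any group.

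The study compared KP4 control cells with KP4 E5 cells, which the series title calls resistant to FOLFIRINOX. Each was given DMSO vehicle or FOLFIRINOX for 96 h. FOLFIRINOX is a drug combination used in pancreatic cancer, and the mixture used here had SN-38 at 25 nM (what irinotecan becomes in the body, an inhibitor of topoisomerase I), an agent spelled 5-F in the labels at 10 µM, and the DNA-damaging platinum drug oxaliplatin at 5 µM. The groups are thus control vehicle, control FOLFIRINOX, E5 vehicle and E5 FOLFIRINOX, with 3 libraries in each, and all cells were grown in the same serum-containing medium. The design text speaks of 5 cycles of treatment with DMSO or FOLFIRINOX, and it does not say what the E5 cells given vehicle here had received before. E5 is a single derived line, so a difference between E5 and control cells is a difference between these 2 cultures, and drug history and line cannot be told apart. The labels do not say whether the 3 libraries of a group came from separate cultures, so p values measure only the spread between these libraries, which may be technical.

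Most of these enzymes are anchored in the plasma membrane with the active site facing outwards. Neprilysin (MME) and endothelin-converting enzyme 1 (ECE1) are zinc endopeptidases of the M13 family. Neprilysin breaks down enkephalins, substance P and natriuretic peptides, and ECE1 cuts big endothelin to active endothelin. The M1 family trims single amino acids from the start of peptides: aminopeptidase N (ANPEP), glutamyl aminopeptidase (ENPEP), the oxytocinase or insulin-regulated aminopeptidase (LNPEP), and the thyrotropin-releasing hormone degrading ectoenzyme (TRHDE). DPP4 is a serine peptidase that removes dipeptides from incretins and chemokines. ADAM10 and ADAM17 are sheddases, which release the outer parts of growth factors, receptors and adhesion molecules from the membrane.

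Promoter sequences of 4 genes are shown because MME and TRHDE were at their lowest, and DPP4 and ECE1 at their highest, in E5 cells. They come from RefSeq (GRCh38.p14) and run from 250 bases before to 50 bases after the annotated start, 5′ to 3′ on the gene's strand. For genes with several annotated starts the most upstream one is given. The MME window is chr3:155079422-155079721 on the plus strand, the TRHDE window chr12:72272120-72272419 on the plus strand, the DPP4 window chr2:162074166-162074465 on the minus strand and the ECE1 window chr1:21345455-21345754 on the minus strand. Capitals mark matches to GGGCGG (the GC box) or CCAAT (the CCAAT box) on either strand, where adjoining or overlapping matches run together.
MME: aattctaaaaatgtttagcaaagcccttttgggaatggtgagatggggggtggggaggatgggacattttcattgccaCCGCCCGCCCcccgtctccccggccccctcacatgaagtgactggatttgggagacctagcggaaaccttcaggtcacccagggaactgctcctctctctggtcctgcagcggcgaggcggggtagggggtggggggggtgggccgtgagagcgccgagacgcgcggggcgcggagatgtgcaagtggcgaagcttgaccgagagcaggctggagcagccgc
TRHDE: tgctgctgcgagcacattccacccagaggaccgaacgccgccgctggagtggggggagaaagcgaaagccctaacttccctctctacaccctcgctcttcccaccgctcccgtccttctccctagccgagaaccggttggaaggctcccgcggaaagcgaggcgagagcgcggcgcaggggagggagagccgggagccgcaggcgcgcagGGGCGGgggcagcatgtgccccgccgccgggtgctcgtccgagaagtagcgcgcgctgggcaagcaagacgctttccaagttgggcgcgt
DPP4: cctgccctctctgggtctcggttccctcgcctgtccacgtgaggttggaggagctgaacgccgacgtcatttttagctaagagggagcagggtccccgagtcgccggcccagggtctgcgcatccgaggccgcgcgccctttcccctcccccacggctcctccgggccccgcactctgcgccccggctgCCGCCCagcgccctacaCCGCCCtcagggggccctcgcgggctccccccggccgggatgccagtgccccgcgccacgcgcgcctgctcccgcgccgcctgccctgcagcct
ECE1: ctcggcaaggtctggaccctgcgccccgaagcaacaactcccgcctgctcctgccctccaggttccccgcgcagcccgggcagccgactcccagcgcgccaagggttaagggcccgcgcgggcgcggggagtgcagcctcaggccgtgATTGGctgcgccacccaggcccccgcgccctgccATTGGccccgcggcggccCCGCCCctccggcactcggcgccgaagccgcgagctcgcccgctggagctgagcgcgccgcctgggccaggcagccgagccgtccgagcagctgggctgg

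All 9 genes had at least 1 RefSeq window. Among the sequences above, MME held 19 CpG dinucleotides, TRHDE 34, DPP4 34 and ECE1 37, against a median of 14 over 35114 windows of this length. The GC box was matched 2 times for MME, 1 time for TRHDE, 2 times for DPP4 and 1 time for ECE1, and the CCAAT box 2 times for ECE1 alone among the 4. Of all windows, 45.0% held GGGCGG and 34.6% held CCAAT. Neither TATAAA (11.5% of all windows) nor the AP-1 letters TGANTCA (7.71%) occurred in these 4 windows, and TGANTCA occurred in none of the windows of the 9 genes. The gene models behind the counts extend upstream of the starts shown for all 4 genes, and counts per gene do not show which start was used. MME and ECE1 have 4 annotated starts each, and their other windows differed. The window of the MME start 3 held 27 CpG and 1 CCAAT match, and that of the ECE1 start 3 held 41 CpG and 6 GC box matches.

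Reads assigned to genes ranged from 7359034 to 21775030 per library. Levels are given as CPM, counts scaled to 1e+06 of the effective library size, with mean ± SD over the 3 libraries of a group. As a check of the cell type, KRT18, KRT8 and SOX9 were read in every group, while EPCAM (group means 0.291 to 1.2 CPM) and CDH1 (0.304 to 1.92 CPM) were low. KRT19 (0.239 to 4.37 CPM), MUC1 (1.77 to 5.40) and KRT7 (1.15 to 9.12) were also far below KRT18 (171 to 621). The 8 ductal and epithelial markers summed to 248 to 547 CPM in control libraries and 841 to 1004 CPM in E5 libraries, mostly KRT18. The 9 leukocyte markers summed to 0.267 to 1.03 CPM over all 12 libraries, with CD3E and SPI1 at 0 counts. The 7 fibroblast markers summed to 4.06 to 17.5 CPM, mostly COL1A1, and the 5 endothelial markers to 1.55 to 8.84 CPM, highest in E5 vehicle, where CDH5 reached 5.54 CPM. Their part in the differences described here was not tested.

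**Figure D1:**
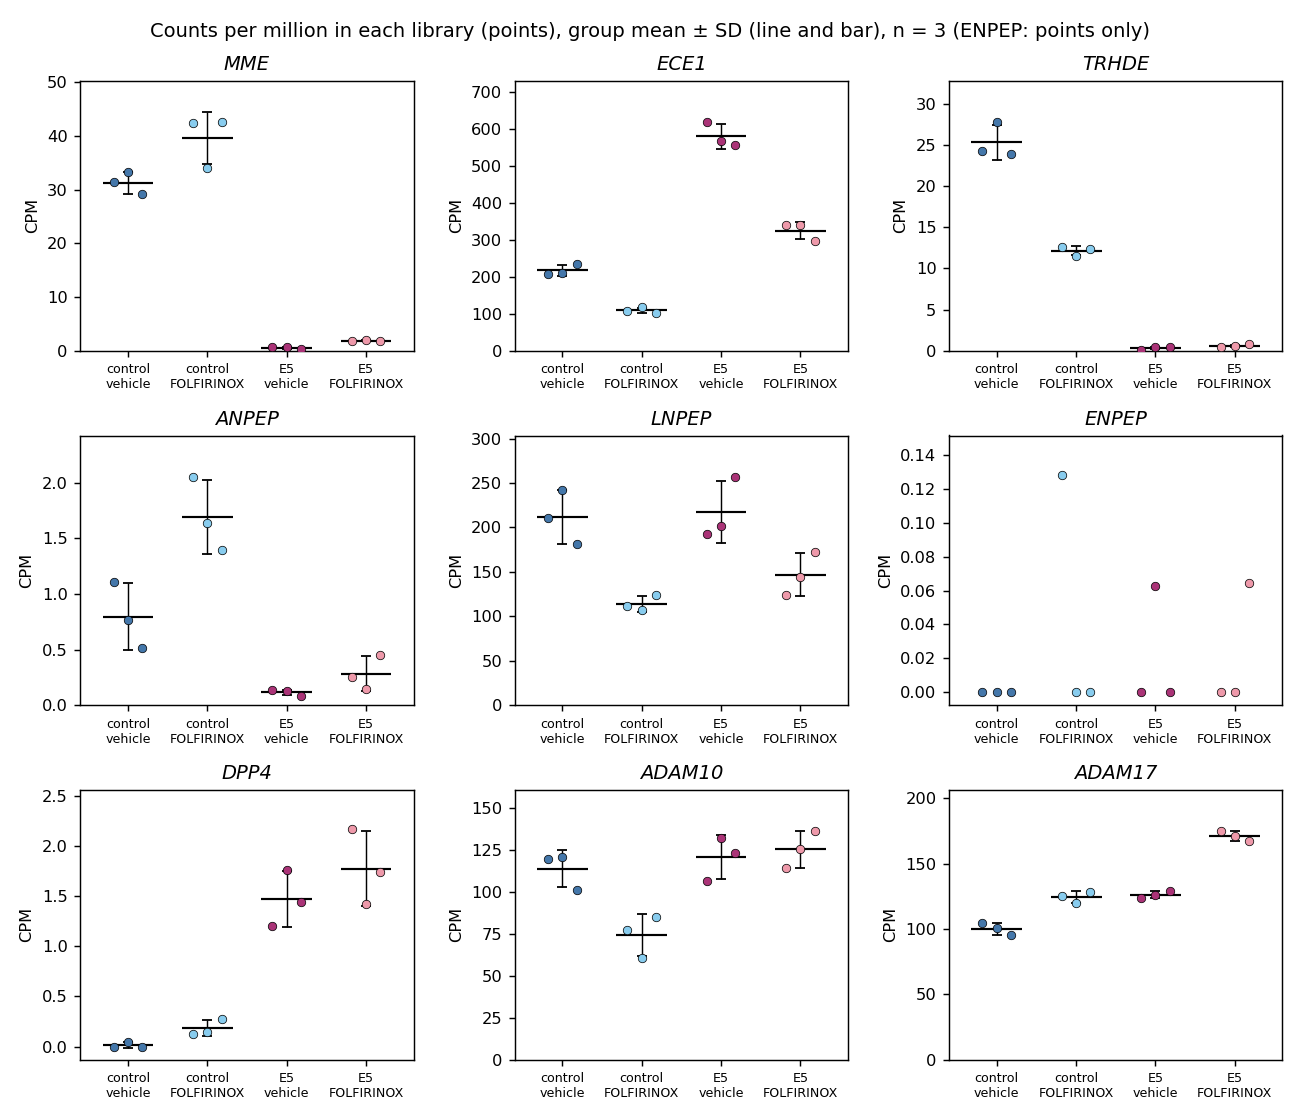
Level of each of the 9 peptidase genes in CPM (vertical axis, a separate linear scale for each gene) in the 12 libraries. Points are libraries, lines and bars the group mean ± SD over 3 libraries, left out for ENPEP. MME, TRHDE and ANPEP stood higher in all control libraries than in any E5 library, and ECE1 and DPP4 the other way round.

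The neprilysin gene, MME (ENSG00000196549.13, chr3:155024124-155183704 in GRCh38), was read well in control cells and was near the detection limit in E5 cells. Its level was 31.3, 33.2 and 29.1 CPM in the control vehicle libraries and 0.669, 0.628 and 0.255 CPM in the E5 vehicle libraries. Under FOLFIRINOX it was 42.4, 34.1 and 42.5 CPM in control cells and 1.75, 2.06 and 1.86 CPM in E5 cells. All 4 groups were separate: every E5 FOLFIRINOX library lay above every E5 vehicle library, and both lay far below every control library. In E5 vehicle these levels rest on 18 counts in all, against 1488 in control vehicle. In RNA from whole cultures, as here, fewer cells with the transcript and less transcript per cell cannot be told apart.

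MME was 60.1-fold lower in E5 than in control cells under vehicle, a log2 fold change of -5.91 ± 0.20 (SE, adjusted p = 1.96e-13, edgeR quasi-likelihood test). Under FOLFIRINOX it was 20.9-fold lower (log2 -4.38 ± 0.14, adjusted p = 1.14e-13). The drug itself went with a small rise in control cells, 1.26-fold (log2 0.34 ± 0.099, adjusted p = 0.00658), and with a 3.63-fold rise in E5 cells (log2 1.86 ± 0.32, adjusted p = 0.000125). The 2 drug responses of MME differed by 1.53 ± 0.35 on the log2 scale (adjusted p = 0.00381). That difference depended on the values and the scale used. On the authors' FPKM (fragments scaled by gene length and depth) as log2(FPKM + 1) it was -0.15 (adjusted p = 0.521). A pseudocount of 1 exceeds every E5 value of MME. As log2(FPKM + 0.1) it was 0.45 and did not pass, nor did it on the authors' rlog values (0.21). The FPKM did not follow the counts in proportion. In E5 vehicle, 0.669, 0.628 and 0.255 CPM stood beside 0.3, 0.15 and 0.2 FPKM. Whether scale or quantification made the difference was not tested. The rise in E5 cells took MME to a level still below every control library.

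ECE1 (ENSG00000117298.16, chr1:21217247-21345572), of the same M13 family, showed the opposite order between the lines. Its level was 207, 211 and 236 CPM in control vehicle and 619, 567 and 556 CPM in E5 vehicle. With FOLFIRINOX the control libraries stood at 107, 118 and 103 CPM and the E5 libraries at 339, 339 and 298 CPM. No pair of groups overlapped, and drugged E5 cells lay above untreated control cells.

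ECE1 was 2.66-fold higher in E5 cells under vehicle (log2 1.41 ± 0.074, adjusted p = 5.68e-11) and 2.97-fold higher under the drug (1.57 ± 0.075, adjusted p = 1.96e-11). FOLFIRINOX lowered ECE1 1.99-fold in control cells (log2 -0.99 ± 0.075, adjusted p = 5.61e-09) and 1.78-fold in E5 cells (-0.83 ± 0.072, adjusted p = 8.2e-08). The difference between the 2 responses was 0.16 ± 0.10 on the log2 scale and did not pass (adjusted p = 0.277). MME and ECE1 thus differed in direction both between the lines and under the drug.

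TRHDE (ENSG00000072657.9, chr12:72087266-72670758), the ectoenzyme of thyrotropin-releasing hormone, was 24.2, 27.7 and 23.9 CPM in control vehicle and 0.134, 0.439 and 0.425 CPM in E5 vehicle. Under FOLFIRINOX it was 12.6, 11.5 and 12.4 CPM in control cells and 0.516, 0.569 and 0.771 CPM in E5 cells. The control groups were separate from each other and from both E5 groups, and the E5 groups did not overlap each other.

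TRHDE was 67.4-fold lower in E5 than in control cells under vehicle (log2 -6.07 ± 0.19, adjusted p = 9.77e-14), on 13 against 1219 counts. It was 19.5-fold lower under FOLFIRINOX (log2 -4.28 ± 0.18, adjusted p = 3.34e-12), on 30 against 553 counts. FOLFIRINOX lowered TRHDE 2.10-fold in control cells (log2 -1.07 ± 0.10, adjusted p = 8.44e-08). On log2(FPKM + 0.1) that fall was -0.58 and did not pass (adjusted p = 0.283). The control FOLFIRINOX libraries held 6.23, 4.38 and 3.84 FPKM, which is not in proportion to their CPM. In E5 cells the fitted change was 0.72 ± 0.40 and did not pass (adjusted p = 0.179). The responses of the 2 lines differed by 1.79 ± 0.40 (adjusted p = 0.0037), but by 0.66 on log2(FPKM + 1), where the adjusted p was 0.0549, and by 1.26 on log2(FPKM + 0.1), neither of which passed.

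An antisense gene, TRHDE-AS1, overlaps the TRHDE locus on the other strand, and the counts used here come from the table the authors label as stranded. Under vehicle TRHDE-AS1 stood at 12.7 ± 0.584 CPM in control and 0.112 ± 0.128 CPM in E5 cells, and under FOLFIRINOX at 12.8 ± 1.69 and 0.279 ± 0.12 CPM (SD, n = 3). Its log2 difference between E5 and control cells was -6.41 ± 0.31 under vehicle (adjusted p = 1.6e-11) and -5.44 ± 0.24 under the drug (adjusted p = 8.26e-12). Sense and antisense genes were thus both lower in E5 cells. In control cells the drug changed TRHDE-AS1 by -0.00 ± 0.12 (adjusted p = 0.994), while TRHDE itself fell. MME-AS1, the antisense gene at MME, had 1 count over all libraries.

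ANPEP (ENSG00000166825.15, chr15:89784895-89815401), the myeloid antigen CD13 and an aminopeptidase of broad specificity, was low in all groups. Its level was 1.11, 0.763 and 0.514 CPM in control vehicle and 2.05, 1.63 and 1.39 CPM in control FOLFIRINOX. E5 libraries held 0.134, 0.126 and 0.085 CPM under vehicle and 0.258, 0.142 and 0.450 CPM under the drug. Every control library lay above every E5 library. In E5 vehicle the gene had 4 counts in all, and in E5 FOLFIRINOX 14.

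The level of ANPEP was 6.14-fold lower in E5 cells under vehicle (log2 -2.62 ± 0.58, adjusted p = 0.00113) and 5.54-fold lower under FOLFIRINOX (-2.47 ± 0.36, adjusted p = 1.64e-05). In control cells the drug raised it 2.17-fold (log2 1.12 ± 0.29, adjusted p = 0.00292). That rise did not pass with DESeq2 (log2 1.14, adjusted p = 0.0526), and none of these 3 ANPEP changes passed on either FPKM scale. The value in E5 cells was 1.27 ± 0.72 and did not pass (adjusted p = 0.135). The interval of the E5 count ratio, 0.789 to 10.5, covers the control fold, and the difference between the responses, 0.15 ± 0.83, was not resolved (adjusted p = 0.891).

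LNPEP (ENSG00000113441.16, chr5:96935394-97037513), which cleaves oxytocin and vasopressin and travels with the glucose transporter GLUT4 in insulin-responsive cells, was well read in all groups. Vehicle libraries held 211, 243 and 182 CPM in control and 192, 202 and 257 CPM in E5 cells, and these ranges overlap. Drugged libraries held 111, 107 and 124 CPM in control and 124, 144 and 173 CPM in E5 cells. In each line all drugged libraries lay below all vehicle libraries.

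FOLFIRINOX lowered LNPEP 1.85-fold in control cells (log2 -0.89 ± 0.13, adjusted p = 1.09e-05) and 1.48-fold in E5 cells (-0.56 ± 0.13, adjusted p = 0.00126). The lines differed by 0.04 ± 0.12 under vehicle (adjusted p = 0.844). Under FOLFIRINOX E5 cells were 1.29-fold higher (0.36 ± 0.13, adjusted p = 0.0236). This call was lost without control FOLFIRINOX replicate 1 (0.36), without its replicate 2 (0.33) and without E5 FOLFIRINOX replicate 3 (0.25), and with scaling by library totals only (0.29). On log2(FPKM + 1) the value was 0.10 (adjusted p = 0.512) and on log2(FPKM + 0.1) 0.11 (adjusted p = 0.505).

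ENPEP (ENSG00000138792.10, chr4:110365733-110565285), which converts angiotensin II to angiotensin III, had 0 counts in control vehicle and 1 count in each of the other 3 groups. A count of 0 over the control vehicle libraries allows up to 0.0632 CPM, so the gene was not detectable at this depth and no fold is given. Within the M1 family the levels therefore ran from LNPEP, with at least 5259 counts in each group, to ENPEP at the floor.

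DPP4 (ENSG00000197635.11, chr2:161992245-162074394), also called CD26, was the surface peptidase that went from near absence in control cells to a low level in E5 cells. Control vehicle libraries held 0, 0.0477 and 0 CPM, which is 1 count in all. Control FOLFIRINOX libraries held 0.128, 0.149 and 0.278 CPM, or 9 counts. E5 libraries held 1.2, 1.76 and 1.44 CPM under vehicle and 2.17, 1.42 and 1.74 CPM under the drug. Every E5 library lay above every control library, and the E5 groups overlapped.

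With 1 count in control vehicle, no fitted fold is given for DPP4 there. The ratio of E5 to control vehicle was 72.9 from 54 against 1 counts, with an exact 95% counting interval from 12.5 to 2932 (adjusted p of the edgeR test 4.87e-07). Under FOLFIRINOX the fitted difference was 3.15 ± 0.37 on the log2 scale (adjusted p = 1.61e-06), from 89 against 9 counts. In control cells the drug-to-vehicle ratio was 9.30, with an interval from 1.29 to 408 (adjusted p = 0.0142). That call was lost without control vehicle replicate 3 (adjusted p = 0.0592) and without control FOLFIRINOX replicate 3 (adjusted p = 0.0767), and also on both FPKM scales (0.06 and 0.44) and on rlog (0.19). The 1 count of control vehicle is in its replicate 2, and without that library the group stands at 0 and has no ratio. In E5 cells DPP4 changed by 0.24 ± 0.25 and did not pass (adjusted p = 0.44). The difference between the drug responses did not pass (adjusted p = 0.0618).

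ADAM10 (ENSG00000137845.15, chr15:58588809-58749791), the main sheddase of Notch receptors and several cadherins, fell with the drug in control cells and did not pass in E5 cells. Control libraries held 120, 121 and 101 CPM under vehicle and 77.1, 60.6 and 85.2 CPM under FOLFIRINOX. E5 libraries held 107, 132 and 123 CPM under vehicle and 114, 126 and 136 CPM under the drug. Only the drugged control libraries stood apart, below all 9 others.

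FOLFIRINOX lowered ADAM10 1.53-fold in control cells (log2 -0.62 ± 0.11, adjusted p = 0.000151). In E5 cells the change was 0.05 ± 0.12 (adjusted p = 0.742), and the difference between the lines' responses was 0.67 ± 0.16 (adjusted p = 0.00593). Under vehicle the lines differed by 0.09 ± 0.11 (adjusted p = 0.549), and under the drug E5 cells were 1.69-fold higher (log2 0.76 ± 0.11, adjusted p = 2.66e-05). These 5 ADAM10 results kept their side of the threshold in all alternative settings.

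ADAM17 (ENSG00000151694.14, chr2:9488486-9556732), the sheddase of tumour necrosis factor and of epidermal growth factor family ligands, was 104, 101 and 95.3 CPM in control vehicle and 126, 120 and 128 CPM in control FOLFIRINOX. E5 libraries held 123, 126 and 129 CPM under vehicle and 175, 171 and 167 CPM under the drug. Drugged control and undrugged E5 libraries overlapped, and drugged E5 libraries were above all others.

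The drug raised ADAM17 1.25-fold in control cells (log2 0.32 ± 0.059, adjusted p = 0.000151) and 1.35-fold in E5 cells (0.44 ± 0.058, adjusted p = 8.91e-06). E5 cells were 1.26-fold higher under vehicle (0.34 ± 0.059, adjusted p = 0.000167) and 1.37-fold higher under FOLFIRINOX (0.46 ± 0.058, adjusted p = 4.05e-06). The responses differed by 0.12 ± 0.082, which did not pass (adjusted p = 0.304). ADAM10 and ADAM17 thus moved in opposite directions under the drug in control cells, ADAM10 down and ADAM17 up.

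**Figure D2:**
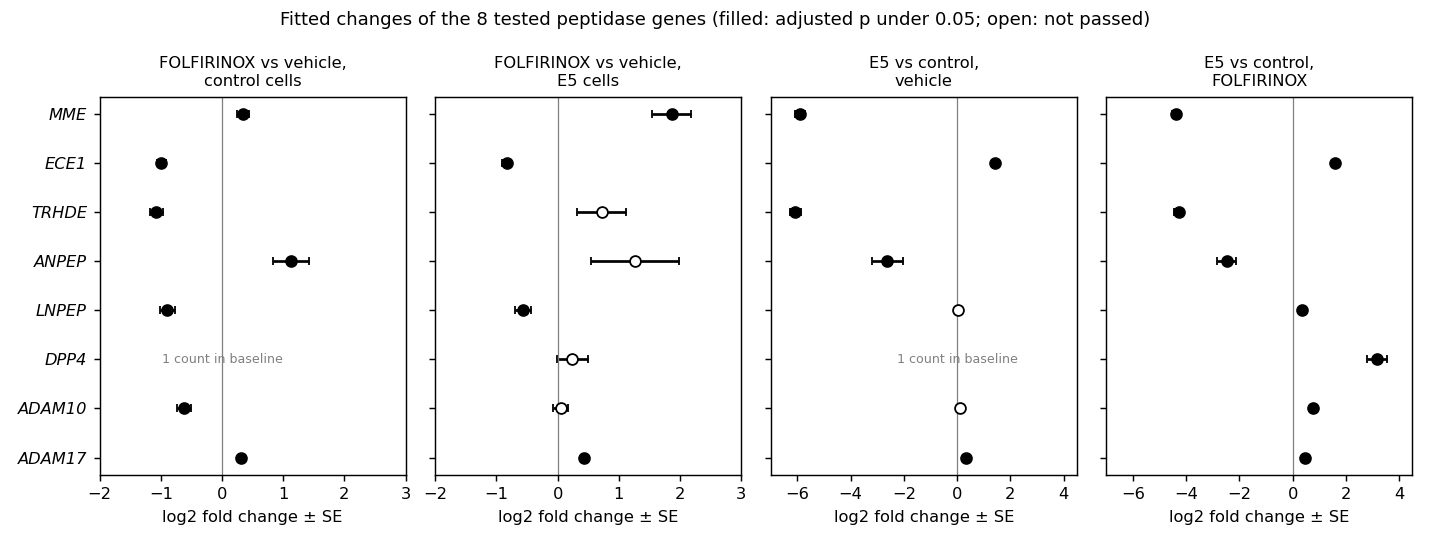
Fitted log2 fold changes ± SE (horizontal axes) of the 8 tested peptidase genes in the 4 comparisons between groups. Filled points passed at an adjusted p under 0.05, and DPP4 is left out where the baseline held 1 count. MME and TRHDE lie at -5.91 and -6.07 in E5 against control cells under vehicle, while the drug effects lie between -1.07 and 1.86.

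Counted together, all 8 tested genes changed with FOLFIRINOX in control cells, 4 higher (MME, ANPEP, DPP4 and ADAM17) and 4 lower (ECE1, LNPEP, TRHDE and ADAM10). Of all genes tested 65.3% were called there, 32.6% higher and 32.7% lower, and the groups did not overlap for 67% of genes and for 8 of these 8. In E5 cells 2 rose (MME and ADAM17), 2 fell (ECE1 and LNPEP) and 4 did not pass, where 52.3% of all genes were called (25% higher, 27.3% lower). With scaling by library totals alone the control drug calls were 6197 higher and 3997 lower, against 5095 and 5109, and the median of all genes was 0.14 in place of 0.00, but the 8 genes kept their directions. The libraries of the 2 E5 groups did not overlap for 6 of the 8, against 59.7% of all genes.

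Between the lines under vehicle, 3 were higher in E5 cells (ECE1, DPP4 and ADAM17), 3 lower (MME, ANPEP and TRHDE) and 2 did not pass, against 44.4% of all genes called (22.1% higher, 22.2% lower). Libraries did not overlap for 6 of the 8 and for 54.8% of all genes. Under FOLFIRINOX 5 were higher in E5 cells, those 3 with LNPEP and ADAM10, and 3 lower, where 54.3% of all genes were called (26.7% higher, 27.6% lower). Libraries did not overlap for 7 of the 8, LNPEP being the exception, and for 57.2% of all genes. The drug responses of the lines differed for 3 of the 8, MME, TRHDE and ADAM10, all with the higher value in E5 cells, where 25.7% of all genes were called (13.3% higher, 12.4% lower). The comparisons share libraries, so their counts are not independent of one another, and with 8 genes these shares are given for scale only.

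Levels of different genes can be set side by side only per length, for which the authors' FPKM was used. In control vehicle ECE1 (41.6 FPKM) and ADAM10 (40.9) led and overlapped. ADAM17 (21.2) and LNPEP (15.4) followed, then TRHDE (7.09) and MME (6.59), which overlapped, and ANPEP at 0.453, DPP4 at 0.0167 and ENPEP listed at 0. In E5 vehicle ECE1 led alone at 114 ± 6.57 FPKM (SD, n = 3), before ADAM10 at 41.7, ADAM17 at 27.0 and LNPEP at 16.8. MME (0.217) and TRHDE (0.173) then stood below DPP4 (0.620), and their libraries overlapped each other. Under FOLFIRINOX the top gene of control cells was ADAM10 (31.9), whose libraries overlapped those of ADAM17 (29.4), ahead of ECE1 (26.3), and in E5 cells ECE1 stayed first at 66.8. In control cells MME (9.51) then stood above TRHDE (4.82) with no overlap, where the same genes had overlapped under vehicle.

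**Figure D3:**
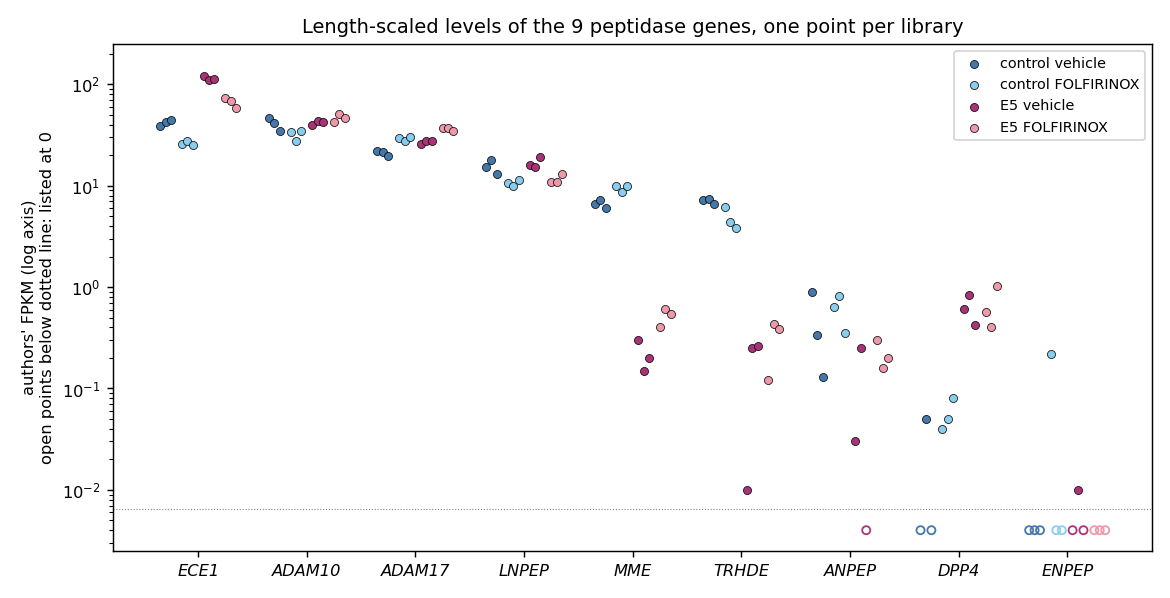
The authors' FPKM of the 9 peptidase genes in the 12 libraries on a log axis, with open points for values listed at 0. ECE1, ADAM10, ADAM17 and LNPEP lie above 10 FPKM in all groups, and MME and TRHDE drop from above 3 FPKM in control libraries to below 1 in E5 libraries.

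The nearest tested protein-coding genes around MME and TRHDE differed less between the lines than these 2 genes, whereas the noncoding TRHDE-AS1, within the TRHDE locus, differed by -6.41 ± 0.31 as given above. Of the 3 nearest tested protein-coding genes on each side of MME, log2 differences between E5 and control vehicle lay between -0.67 ± 0.093 (ARHGEF26) and 0.30 ± 0.45 (PLCH1). These genes lie 192 kb (PLCH1) to 1853.5 kb (RAP2B) from MME, and PLCH1 was low, at 0.386 CPM in control vehicle. Around TRHDE the differences lay between -0.49 ± 0.15 (CAPS2) and 0.72 ± 0.29 (GLIPR1L2), in genes 160 kb (TBC1D15) to 2720 kb (GLIPR1L2) away. How far around either gene the difference reaches was not tested. Among the neighbours of ECE1, ALPL (1.67 ± 0.21) and RAP1GAP (1.19 ± 0.14) were also higher in E5 cells, while SH2D5 was lower (-1.30 ± 0.11). They lie 164, 251 and 484 kb away, and ALPL was low in control vehicle (1.77 CPM). Nearer to ECE1, EIF4G3 at 40.4 kb was 0.04 ± 0.061 and NBPF3 at 94.6 kb was 0.09 ± 0.091, and neither passed. HP1BP3, at 430 kb, was 0.33 ± 0.054. Beside DPP4 lies IFIH1, a sensor of double-stranded RNA, at 1.86 ± 0.084 (adjusted p = 1.01e-11). The other neighbours of DPP4 lay between -0.33 ± 0.13 (FIGN) and 0.62 ± 0.084 (RBMS1). Of these, PSMD14 was -0.02 ± 0.064 and GCA 0.22 ± 0.13, and neither passed. ERAP1 and ERAP2, which trim peptides in the endoplasmic reticulum, lie beside LNPEP and were higher in E5 vehicle by 0.94 ± 0.064 and 1.19 ± 0.086, where LNPEP was 0.04 ± 0.12. EGF lies 352 kb from ENPEP and was higher in E5 vehicle by 5.47 ± 0.34, from 0.0858 CPM in control vehicle. ELOVL6, nearer on the same side at 167 kb, differed by 0.38 ± 0.0996. GCOM1 (2.98 ± 0.39) and MYZAP (2.96 ± 0.54) lie 874 and 903 kb from ADAM10, which was 0.09 ± 0.11. Both were low in control vehicle (0.190 and 0.153 CPM). Nearer to ADAM10, MINDY2 at 21.4 kb was 0.28 ± 0.14 and POLR2M at 806 kb was -0.02 ± 0.14. GCOM1 and MYZAP share sequence at 1 locus, so their counts are uncertain.

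**Figure D4:**
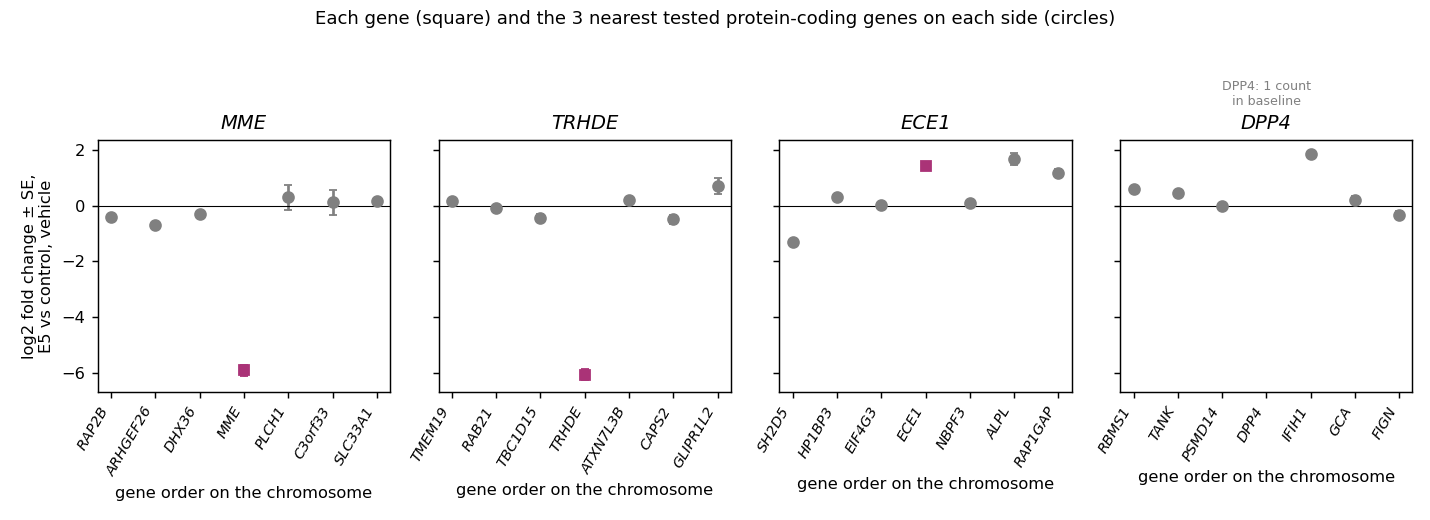
Log2 fold change ± SE of E5 against control cells under vehicle (vertical axis) for MME, TRHDE and ECE1 (squares) and the 3 nearest tested protein-coding genes on each side of these and of DPP4 (circles), in chromosome order. MME and TRHDE lie near -6 while their neighbours, up to 1853.5 and 2720 kb away, lie between -0.67 and 0.72. DPP4 has no fitted point, since its baseline held 1 count.

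The genes with the most similar pattern over the 12 libraries were found by Pearson correlation of log CPM among 10258 candidates. The libraries fall into 4 groups that all genes share, so high values are common, and they are given as a description. For MME the closest were MECOM (r = 0.992), UAP1 (0.989) and CPED1 (0.984). MECOM, a zinc finger transcription factor, averaged 36.01 CPM in control vehicle and 2.70 in E5 vehicle, and CPED1 155 and 3.20 CPM. For TRHDE they were COBL (0.994), LYPLA1 (0.991) and NOL11 (0.990), and COBL, an actin nucleator, averaged 19.5, 13.3, 3.08 and 3.81 CPM in the 4 groups in the order given above. For DPP4 they were AHR (0.993), FRRS1 (0.991) and EPS8 (0.990). AHR, the aryl hydrocarbon receptor, averaged 18.8 CPM in control and 227 CPM in E5 cells under vehicle, and 46.5 and 266 CPM under the drug.

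The closest gene to ECE1 was LGALS3BP (r = 0.998), a secreted galectin-3 binding glycoprotein, at 81.1, 23.1, 369 and 152 CPM in the same group order. Next came TKT (0.996), the transketolase of the pentose phosphate pathway, and NUCB1 (0.996). ANPEP was closest to RAB33B (0.977), LNPEP to RTF1 (0.974), ADAM10 to MBNL2 (0.986) and ADAM17 to ACVR1 (0.990), a receptor of bone morphogenetic proteins. Among the 8 tested peptidase genes themselves, ECE1 and ANPEP correlated at r = -0.959, TRHDE and DPP4 at -0.959 and MME and TRHDE at 0.958 over the same 12 libraries. MME correlated with ANPEP at 0.922 and with ECE1 at -0.916. These pairs had the largest values in size.

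Related genes are described by lists chosen with earlier results of these libraries known, so their counts are descriptions. For scale in every list, 65.3% of all genes were called for the drug in control cells and 52.3% in E5 cells. Between the lines 44.4% were called under vehicle and 54.3% under FOLFIRINOX, and for the difference of responses 25.7%. Of 13 other M13 and M1 peptidases 8 were tested. In control cells 2 rose with FOLFIRINOX and 5 fell (median log2 change -0.59, against 0.00 over all genes), and in E5 cells none rose and 5 fell (median -0.38). NPEPPS, the puromycin-sensitive aminopeptidase of the cytosol, fell by 1.2 on the log2 scale in control cells (SE 0.061, adjusted p = 6.28e-11) and by 0.62 in E5 cells (SE 0.058, adjusted p = 2.04e-07). RNPEPL1 fell by 1.5 in control cells (SE 0.13, adjusted p = 3.52e-08), and RNPEP, aminopeptidase B, by 1.26 in E5 cells (SE 0.075, adjusted p = 1.43e-09). Between the lines under vehicle 3 were higher in E5 cells (NPEPPS at 1.10 ± 0.059, ERAP1 and ERAP2) and 1 lower. Under FOLFIRINOX 4 were higher and 1 lower, NPEPPS by 1.68 ± 0.061. The drug responses differed for 5 of the 8. ERAP2 (0.44 ± 0.12, adjusted p = 0.016) lost that call without control vehicle replicate 2 (0.39, adjusted p = 0.0501). It also lost the call on log2(FPKM + 1) (0.12, adjusted p = 0.576) and on log2(FPKM + 0.1) (0.18, adjusted p = 0.458). NPEPPS (0.58 ± 0.084) lost it on both FPKM scales (0.30 and 0.32, adjusted p = 0.105 on each). RNPEPL1 (0.88 ± 0.18) lost it on log2(FPKM + 1) (0.58, adjusted p = 0.0548).

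Of 22 other surface, carboxy- and dipeptidyl peptidases 10 were tested. In control cells 2 rose and 4 fell with the drug (median -0.19), and in E5 cells 2 rose and 5 fell (median -0.14). The gene of carboxypeptidase M, which removes basic residues from the end of peptides, rose by 1.47 ± 0.093 in control cells (adjusted p = 8.16e-10) and by 0.82 ± 0.10 in E5 cells (adjusted p = 4.69e-06). The difference of its responses was -0.65 ± 0.14 (adjusted p = 0.00274), the only one of the 10 that passed. On log2(FPKM + 1) it was -0.48 (adjusted p = 0.0898) and on log2(FPKM + 0.1) -0.50 (adjusted p = 0.117), and neither passed. PREP, prolyl endopeptidase, fell by 0.98 on the log2 scale in control cells (SE 0.068, adjusted p = 2.35e-09) and by 0.83 in E5 cells (SE 0.067, adjusted p = 3.88e-08). PREP was also the 1 gene of the 10 that differed between the lines under vehicle, at 0.44 ± 0.066, and under FOLFIRINOX 2 were higher in E5 cells and 3 lower.

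Of 9 other ADAM family genes, not all of which encode active proteases, 7 were tested. In control cells 1 rose with FOLFIRINOX and 6 fell (median -1.003), while in E5 cells 1 rose and 3 fell (median -0.32). ADAM12 was the gene that rose, by 1.32 ± 0.29 in control cells (adjusted p = 0.000647) and 1.47 ± 0.25 in E5 cells (adjusted p = 0.000124). ADAM22, which lacks protease activity and binds LGI proteins, fell by 1.36 on the log2 scale in control cells (SE 0.13, adjusted p = 1.19e-07). Its responses differed by 1.04 ± 0.20 (adjusted p = 0.00105). That difference was 0.44 on log2(FPKM + 1) (adjusted p = 0.334) and 0.60 on log2(FPKM + 0.1) (adjusted p = 0.37), neither of which passed. Responses differed also for ADAM19 (0.48 ± 0.11) and ADAM9 (0.45 ± 0.14, adjusted p = 0.0259), all 3 with the higher value in E5 cells, as in ADAM10. For ADAM9 that call was lost when any of 5 single libraries was left out, with values from 0.39 to 0.45, and on both FPKM scales (0.37 and 0.38). Between the lines under vehicle 2 were higher in E5 cells, ADAM23 by 1.14 ± 0.17, and 3 lower. Under FOLFIRINOX 3 were higher and none lower.

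ADAM10 and ADAM17 are guided through the cell by other proteins: TspanC8 tetraspanins for ADAM10, the iRhoms (RHBDF1 and RHBDF2) with FRMD8 for ADAM17, and the convertases FURIN and PCSK7, which remove their prodomains. Of 14 such regulators 12 were tested. In control cells 2 rose with the drug and 7 fell (median -0.45), and in E5 cells 1 rose and 9 fell (median -0.45). TSPAN15 stood at 25.2 ± 0.440 CPM in control and 8.07 ± 0.438 CPM in E5 cells under vehicle, and at 11.2 ± 1.25 and 5.66 ± 0.654 CPM under the drug. Its log2 difference between the lines under vehicle was -1.64 ± 0.10 (adjusted p = 7.54e-10). TSPAN14 fell by 0.89 on the log2 scale in control cells (SE 0.074), and its responses differed by 0.60 ± 0.10 (adjusted p = 0.000532), again higher in E5 cells. That difference was 0.38 on log2(FPKM + 1) (adjusted p = 0.0639) and 0.41 on log2(FPKM + 0.1) (adjusted p = 0.0665), neither of which passed. In E5 cells FURIN changed by -0.91 ± 0.095 (adjusted p = 6.43e-07) and RHBDF2 by -0.80 ± 0.11 (adjusted p = 1.31e-05) with the drug. Between the lines under vehicle 5 of the 12 were higher in E5 cells and 2 lower, and under FOLFIRINOX 5 were higher and 3 lower.

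Of 33 known substrates of these sheddases 29 were tested, and with FOLFIRINOX 12 rose and 9 fell in control cells (median 0.00), 10 rose and 10 fell in E5 cells (median -0.02). TGFA, a ligand of the epidermal growth factor receptor, went from 0.628 ± 0.183 to 8.49 ± 0.396 CPM with the drug in control cells and from 9.93 ± 1.21 to 15.6 ± 0.735 CPM in E5 cells. Its rise in control cells was 3.63 ± 0.18 on the log2 scale (adjusted p = 4.66e-11), and the response in E5 cells minus that in control cells was -3.01 ± 0.22 (adjusted p = 1.32e-07). Between the lines under vehicle 17 of the 29 were higher in E5 cells and 9 lower (median 0.52, against -0.01 over all genes). Of all genes 22.1% were called higher there and 22.2% lower. Among the 17, EGF was higher by 5.47 ± 0.34 (adjusted p = 5.26e-10) and TNFRSF1B by 3.89 ± 0.26 (adjusted p = 1.56e-09). The EGF value rests on 5 counts in control vehicle against 176 in E5 vehicle. VCAM1, an adhesion molecule of leukocyte traffic, went from 1 count in control vehicle to 305 in E5 vehicle, a ratio of 411.7 with a counting interval from 73.3 to 16315. L1CAM, an adhesion molecule of neurons, was higher in E5 cells by 3.05 ± 0.099 under FOLFIRINOX (adjusted p = 1.22e-13). Under the drug 15 were higher in E5 cells and 11 lower.

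Of 32 peptides, and receptors of peptides, that these enzymes are known to act on, 7 were tested, so most of them were hardly read in these cells. With FOLFIRINOX 4 rose and 1 fell in control cells, and 3 rose and 1 fell in E5 cells. CXCR4, the receptor of CXCL12, went from 0.177 ± 0.0600 to 3.66 ± 0.871 CPM in control cells and from 2.98 ± 0.616 to 6.71 ± 0.692 CPM in E5 cells. ACKR3, a scavenging receptor of the same chemokine, rose by 4.13 ± 0.53 in control cells (adjusted p = 2.53e-06) and 3.70 ± 0.23 in E5 cells (adjusted p = 1.73e-09). In control cells this rests on 4 counts under vehicle against 74 under the drug. NTSR1, the receptor of neurotensin, a peptide that neprilysin cleaves, fell from 239 ± 14.9 to 26.3 ± 5.05 CPM in control cells and from 183 ± 16.7 to 64.0 ± 6.80 CPM in E5 cells. The responses of NTSR1 differed by 1.65 ± 0.15 (adjusted p = 1.73e-06). EDN1, whose product ECE1 processes, was lower in E5 than in control cells under FOLFIRINOX (-2.37 ± 0.36, adjusted p = 3.16e-05). That value rests on 18 counts in E5 against 90 in control cells. Under vehicle the EDN1 difference was -0.46 ± 0.44 and did not pass (adjusted p = 0.403).

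**Figure D5:**
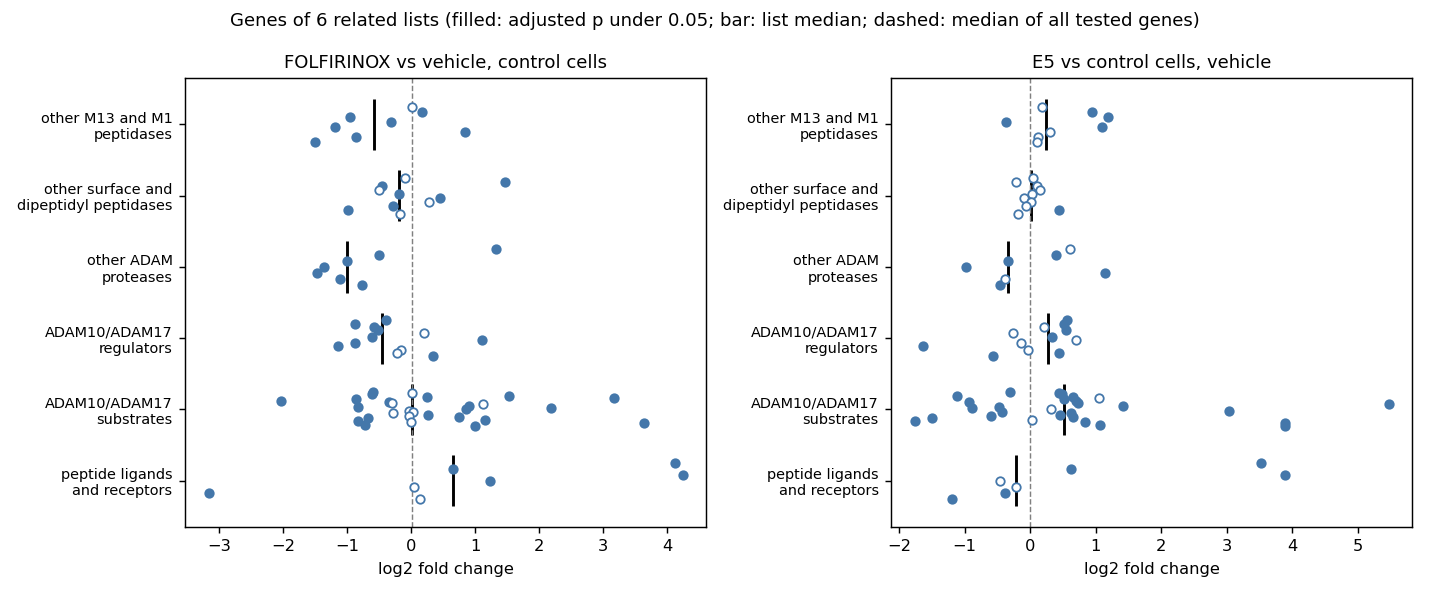
Log2 fold changes (horizontal axes) of the tested genes of the 6 related lists, for FOLFIRINOX against vehicle in control cells (left) and E5 against control cells under vehicle (right). Filled points passed at an adjusted p under 0.05, bars are list medians, the dashed line is the median of all tested genes, and VCAM1 has no point since its baseline held 1 count. The median of the other ADAM genes (labelled proteases) lies at -1.003 on the left and that of the sheddase substrates at 0.52 on the right.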

How the data were processed

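RNA of KP4 cells was sequenced from mRNA-enriched libraries, per the labels' protocols. Trimmomatic and STAR 2.5.1b are named with GRCh38 in the submitters' processing notes, while the tool behind the counts was not given in the sources used here, nor was the gene annotation. The values used are the authors' deposited whole-number read counts per gene, labelled stranded (the main data), the authors' FPKM, and the authors' rlog values on a log2 scale. Each of 4 samples in the labels has 3 columns, read here as 3 libraries by their names, and 0 columns of other samples were set aside. The rows of the count table that name no gene were left out: unmapped reads were 1.47 to 1.70%, reads at several places 10.8 to 12.8%, reads outside genes 6.63 to 8.52% and ambiguous reads 2.86 to 3.20% of a library.

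Counts were tested with edgeR 4.0.16 in R 4.3.3 (TMM scaling, filterByExpr, one model of 4 group means, quasi-likelihood F test), adjusted by Benjamini-Hochberg over all 15636 tested genes at 0.05. SE is the unshrunk coefficient divided by the square root of F, and fitted fold changes use edgeR's default prior count. Count ratios carry exact 95% intervals and limits of 3 counts over a group for a count of 0, which cover counting error only. The procedure was tested on simulated data. Alternatives were RLE or library-total scaling, no filter, DESeq2 1.42.0, 2-group fits, limma 3.58.1 on log2(FPKM + 1), log2(FPKM + 0.1) and rlog, a replicate block, and leaving out each library. Motifs were searched on both strands.

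The members and all gene lists were chosen with earlier results of these data known. From each list the text names genes among the 3 with the largest fold changes past the test in a comparison (at least 1 CPM in a library), and for each tested peptidase the 3 protein-coding genes of at least 5 CPM on average with the highest correlation. Gene coordinates are those in the deposited tables.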

Additional observations from a re-analysis of the deposited data

Results flagged for a closer look

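The drug response differed between the lines for 3 of the 8 tested peptidase genes, by edgeR's test of the difference of the log2 fold changes (E5 minus control, 3 libraries a group). Of all genes tested, 25.7% were called in that test. For MME the difference was 1.53, with a rise of 1.86 in E5 cells and of 0.34 in control cells. For TRHDE it was 1.79, with a fall in control cells (-1.07) and a value of 0.72 in E5 cells that did not pass. On log2(FPKM + 1) and log2(FPKM + 0.1) the TRHDE difference was 0.66 and 1.26 and the MME difference -0.15 and 0.45, and none of these passed. For ADAM10 it was 0.67, with a fall in control cells (-0.62) and a value of 0.05 in E5 cells that did not pass. In E5 vehicle MME and TRHDE rest on 18 and 13 counts over the group, and ADAM10 on 4354.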

How the results depend on the processing

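Of 826 alternative values for the 40 member results, 801 kept the side of the threshold, and the direction too where the reported result had passed. Some values of results that had not passed changed sign, as for ADAM10 with the drug in E5 cells (-0.032 to 0.158) and the ECE1 difference of responses (-0.127 to 0.232). Another 23 lost the call and 1 gained it (the LNPEP difference of responses without a filter, 0.37). Among passed results 1 value reversed: the MME difference of responses on log2(FPKM + 1), -0.15 (adjusted p = 0.521). Of 1248 alternative values for the higher and lower counts of the lists, 1175 were rated the same as the reported ones and 73 moved. Of 1787 values for named genes of the lists, 1717 kept direction and side of the threshold, 68 lost the call and 2 reversed. The 2 were for ADAM12 between the lines under FOLFIRINOX: -0.00054 on log2(FPKM + 1) and -0.0103 on log2(FPKM + 0.1). The cause was not tested. Counts of called genes stayed within 1.5 times of the reported ones in all settings, from 9415 to 10431 for the drug in control cells, 7280 to 8688 for the drug in E5 cells, 5949 to 7471 and 7683 to 8636 between the lines under vehicle and under FOLFIRINOX, and 3216 to 4048 for the difference of responses when 1 library was left out. The split of higher against lower calls moved by over 10 percentage points with library totals alone for the difference of responses (1603 and 2446, against 2080 and 1933) and for the drug in control cells (6197 and 3997, against 5095 and 5109), and without a filter on low counts for the difference of responses (2359 and 1364). On log2(FPKM + 1) it moved for the drug in control cells (5969 and 2949), for the lines under FOLFIRINOX (2638 and 4821, against 4170 and 4318) and for the difference of responses (814 and 2258). On log2(FPKM + 0.1) it was 5940 and 2943, 2605 and 4648, and 751 and 1993 for these, and 3896 and 2775 for the drug in E5 cells, against 3909 and 4265. With the replicate number as a block, 9988, 7905, 6635, 8145 and 3538 genes were called in the 5 comparisons, against 10204, 8174, 6935, 8488 and 4013, and no member call changed. The numbers were not taken to pair the libraries: 18 same-number pairs correlated at -0.188 to 0.148, 3 of them over 0.1, and 3 of 12 libraries correlated best with their own number. Depth limits ANPEP, DPP4 and ENPEP in all groups and MME and TRHDE in E5 cells.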
